A study of Arabidopsis thaliana with 2 samples.

Results

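The 5 genes described here, TAPX, SAPX, MSRB6, FIB and AOR, encode proteins that remove peroxides or limit or repair oxidative damage, most of them in the chloroplast. They were taken as every probe set annotated to 1 of these genes alone, which gave 6 probe sets (2 for TAPX and 1 for each of the others) out of 8247 non-control probe sets, or 5 genes out of 3602 genes with such a probe set. The genes were chosen with their signals on these arrays known, so the differences between genotypes below are descriptions and support nothing by themselves.

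RNA from whole Arabidopsis thaliana seedlings was hybridised to Affymetrix oligonucleotide arrays, 1 array for sks (snakeskin), labelled as an insertion mutant, and 1 for unmodified wild type, both in the Col-0 background. Both sets of seedlings were at growth stage 1.0 and came from Murashige-Skoog medium (1% agar, 1% sucrose) kept at 22 °C under 24 h of light a day. Neither the disrupted gene nor the number of pooled seedlings is stated in the labels, which left no transcript by which to check the genotype, and root, leaf and stem share each RNA sample. With 1 array per genotype there is no test, no standard error and no replicate check, and every difference compares these 2 RNA samples. Fewer cells of a type and less RNA per cell cannot be told apart.

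Chloroplasts make superoxide and hydrogen peroxide when light drives electrons to oxygen at photosystem I. Ascorbate peroxidases turn the peroxide into water at the expense of ascorbate, 1 form bound to the thylakoid membrane (TAPX) and 1 soluble in the stroma (SAPX), the latter known in Arabidopsis to be imported into mitochondria as well. Oxidised ascorbate is regenerated with glutathione, whose own recycling needs glutathione reductase, while thioredoxins and peroxiredoxins form a parallel route. Further proteins deal with the damage: methionine sulfoxide reductases repair oxidised methionine, fibrillins coat the lipid droplets of thylakoids called plastoglobules, and carbonyl reductases detoxify the reactive products of oxidised lipids.

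The 5 genes did not differ in 1 direction. TAPX, MSRB6, FIB and AOR had lower signals on the sks array, by 2.39-fold to 6.18-fold, whereas SAPX had a higher signal there, by 4.67-fold. In the wild type the 5 lower probe sets read between 181.6 and 385.5 and in sks between 52.8 and 78.2. All 6 probe sets passed the limit on low values used below, a mean log2 signal over both arrays at or above the median of non-control probe sets (a signal of 19.4). SAPX passed it only through its sks signal of 83.6, because its wild-type signal of 17.9 lay below that value. Among the 4124 probe sets that passed it, called measured, 12.4% were at least 2-fold lower in sks and 8.12% at least 2-fold higher. Because the 5 genes were picked from this same difference, nothing is read from their count against those shares.

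**Figure D1:**
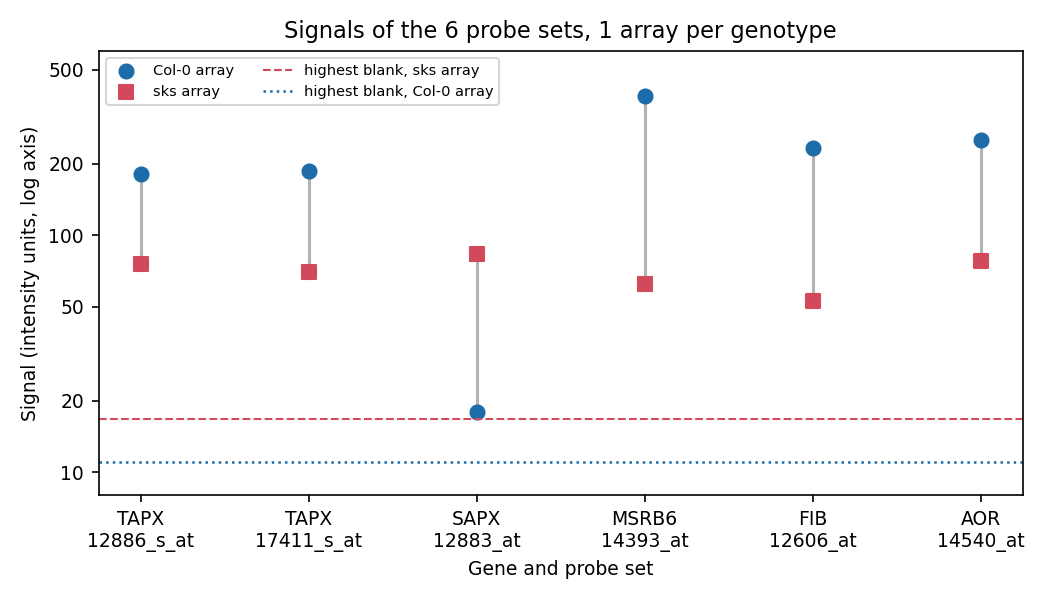
Signal of each of the 6 probe sets (intensity units, log axis) on the Col-0 array (blue circles) and the sks array (red squares), with 1 array per genotype and no error bars; dashed and dotted lines mark the highest blank control signal on the sks (16.8) and Col-0 (11.1) arrays. The sks square lies below the Col-0 circle for TAPX, MSRB6, FIB and AOR and above it for SAPX, whose Col-0 signal of 17.9 is the closest to the blanks.

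TAPX (AT1G77490), the ascorbate peroxidase anchored in the thylakoid membrane beside the photosystems, was read by 2 probe sets. On 12886_s_at its signal was 76.0 in sks and 181.6 in the wild type, a 2.39-fold lower value in sks. On 17411_s_at it was 70.1 in sks and 186.4 in the wild type, 2.66-fold lower. The 2 log2 differences, -1.26 and -1.41, lay 0.15 apart. The 101 pairs of measured probe sets that name the same gene, the TAPX pair included, had a median gap of 0.33. Of these, 32 were as close as the TAPX pair or closer, again counting that pair itself. The pair read the same labelled RNA, so its closeness is not a replicate. Both also carry the _s_at suffix, which Affymetrix gives to probe sets that can share probes with or detect a related transcript.

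SAPX (AT4G08390), the soluble stromal enzyme of the same reaction, had a signal of 83.6 in sks and 17.9 in the wild type. It was the only one of the 5 genes with the higher signal in sks, 2.22 on the log2 scale. Its single probe set, 12883_at, has the plain suffix. The wild-type signal stood 1.61 times above the highest of 23 blank control probe sets, which are directed against mouse, yeast and Bacillus sequences, on that array (11.1) and only just above the highest blank of the sks array (16.8), so the size of the SAPX difference rests on a dim wild-type reading. With an offset of 16 added to every signal, the log2 difference of SAPX was 1.55 and still above the 2-fold limit. The sks signal was 4.98 times the highest blank of its array.

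The thylakoid and the stromal enzyme thus stood on opposite sides of no difference. The log2 difference of TAPX minus that of SAPX was -3.48 with one TAPX probe set and -3.63 with the other, which is an 11.2-fold and a 12.4-fold difference in the ratio of SAPX to TAPX signal between the 2 arrays. A common factor on an array cancels in this value, so scaling by the array median or by the spike controls leaves it as it is. With the added offset it was -2.66 and -2.79. The remaining 6 ascorbate peroxidase genes listed (APX1 to APX6) have no probe set named for them alone in the annotation used here, and the cytosolic and peroxisomal forms are therefore not analysed here.

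MSRB6 (AT4G04840) encodes a B-type methionine sulfoxide reductase. The plastid enzymes of this family known in Arabidopsis are MSRB1 and MSRB2, and a chloroplast location of MSRB6 is not assumed here. Its signal was 62.4 in sks and 385.5 in the wild type, on the plain probe set 14393_at. This was the largest difference of the 5 genes, -2.63 on the log2 scale or 6.18-fold lower, and 24th from the lowest among the 4124 measured probe sets. MSRB5, the gene next to MSRB6 in the gene table, read 267.0 in sks and 435.1 in the wild type, a log2 difference of -0.70. Its probe set ends in _i_at, a suffix for incomplete probe groups. DER2.2, 2 places after MSRB6 and not listed for this family, read 32.4 against 30.3. MSRB9, a further B-type gene elsewhere in the genome, read 78.9 against 35.7 and so had the opposite direction. Its log2 difference was 1.14 with the deposited values but 0.70 with scaling to the spike controls and 0.88 with the added offset. MSRA5, of the A type that acts on the other stereoisomer of the oxidised residue, read 38.0 against 42.9. The 4 measured genes of the 14 listed for this family therefore ranged from -2.63 to 1.14, and their median without MSRB6 was -0.17.

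FIB (AT4G04020), also called fibrillin 1a or plastoglobulin 35, is a structural protein of plastoglobules. It read 52.8 in sks and 233.5 in the wild type, 4.42-fold lower in sks and -2.14 on the log2 scale. Its closest named relative, fibrillin 1b (AT4G22240), read 122.1 in sks and 207.3 in the wild type, a log2 difference of -0.76. A further locus listed under fibrillins, AT2G35490, read 280.2 against 295.7. AT4G00030, listed there too, fell short of the signal limit, with 37.4 in the wild type and 7.1 in sks. The latter lies inside the blank range, which makes the sks signal at least 2.23-fold lower when set against the highest sks blank. With the deposited values FIB was the only one of 3 measured genes at least 2-fold lower, out of 14 listed. FIB was picked from this same difference, and neither of the other 2 passed that limit, beside 12.4% of all measured genes. Fibrillin 1b passed it too with spike scaling (-1.21), beside 26.0%.

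AOR (AT1G23740), the alkenal/one oxidoreductase, uses NADPH to reduce the reactive double bond of carbonyls that arise when membrane lipids are oxidised. It read 78.2 in sks and 251.5 in the wild type on the plain probe set 14540_at. The signal was 3.22-fold lower in sks, -1.69 on the log2 scale. The aldehyde dehydrogenase gene ALDH7B4, the other measured gene of the 8 in the list of carbonyl-detoxifying enzymes, read 111.6 against 97.9, within 2-fold. The gene after AOR in the gene table, AT1G23750, read 34.1 against 54.6, and the third gene before it, AT1G23710, 26.6 against 59.7. Further on, AT1G23770 read 2.0 against 2.5, below the signal limit. These neighbours are not in the carbonyl list.

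**Figure D2:**
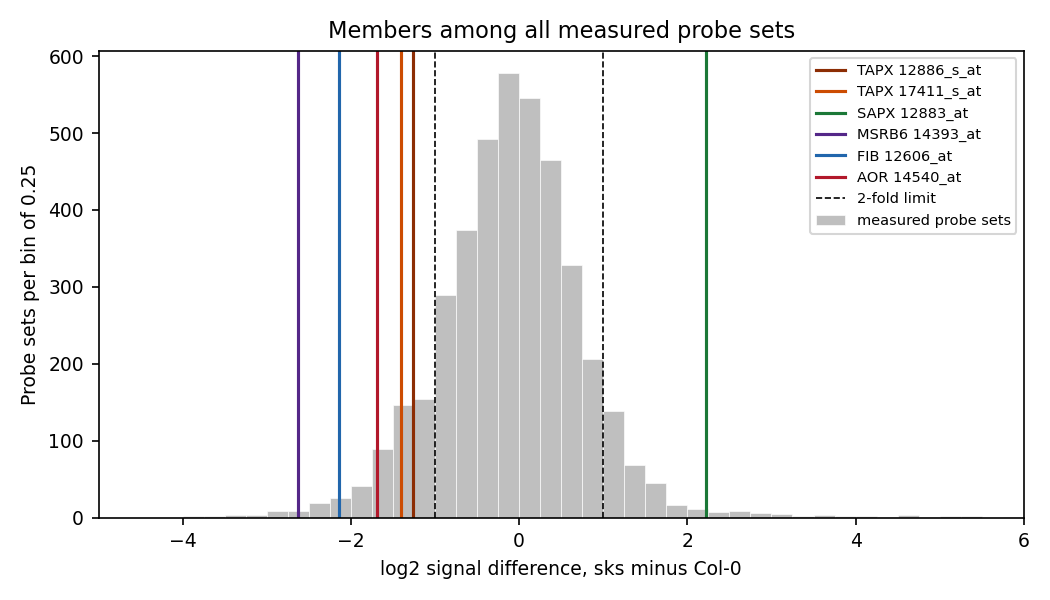
Number of measured probe sets (grey bars, bins of 0.25) by log2 signal difference, sks minus Col-0, with the 6 probe sets as coloured lines and the 2-fold limits dashed; the axis is drawn from -5 to 6 and a few probe sets lie outside it. MSRB6 at -2.63 lies farthest out on the lower side of the 6 and SAPX at 2.22 is the only one on the upper side.

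Ordered by their differences, MSRB6 came first on the lower side, followed by FIB, AOR and TAPX. Among measured probe sets, 0.582% had a difference as low as MSRB6, 1.60% as low as FIB, 3.35% as low as AOR, and 5.94% and 8.51% as low as the TAPX probe sets. On the upper side, 1.31% of measured probe sets were as high as SAPX, the 54th highest, which counts as measured only through its sks signal. The differences of MSRB6 and AOR lay 0.94 log2 units apart, those of FIB and AOR 0.46, and those of AOR and the lower TAPX probe set 0.27. No replicate shows whether that order would recur.

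The genes that work beside these 5 were read from 13 lists of redox genes, in which 122 different genes were placed. A probe set for the gene alone was found for only 20 of the 122, and 19 of these were measured, including the 5 genes. Of the 14 others, 2 were at least 2-fold lower (14.3%) and 2 at least 2-fold higher (14.3%), beside 12.4% and 7.32% of the 1626 measured genes. With spike scaling, 7 of the 14 were at least 2-fold lower (50.0%) and 1 higher (7.14%), beside 26.0% and 2.83% of all measured genes. After quantile normalization, loess removal or the added offset only 1 was lower (7.14%), beside 10.6%, 10.7% and 7.56%. In the same order 2, 2 and 1 were higher (14.3%, 14.3% and 7.14%), beside 8.73%, 8.73% and 4.61%. With the deposited values the median log2 difference of the 14 was -0.38, beside -0.09 over all measured genes. In 5 lists (ascorbate synthesis, superoxide dismutases and catalases, tocopherol synthesis, xanthophyll cycle, ferritins) no gene had a named probe set, and nothing can be said of their transcripts.

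Both measured enzymes that recycle glutathione had higher signals in sks with the deposited values, GR1 not so with spike scaling. GR (AT3G54660), the glutathione reductase of chloroplasts that is also imported into mitochondria, read 66.6 in sks and 23.5 in the wild type, 2.83-fold higher. GR1, the cytosolic and peroxisomal glutathione reductase, read 432.1 against 318.7, a log2 difference of 0.44 that was -0.0026 with spike scaling. GR was read by an _s_at probe set. The ascorbate and glutathione route had 4 measured genes. With the deposited values SAPX and GR passed the 2-fold limit on the upper side, where 7.32% of all measured genes lay. TAPX passed it on the lower side, which held 12.4% of them. SAPX and TAPX were picked from this same difference, and SAPX counts as measured only through its sks signal. Apart from these members only GR and GR1 remain, so nothing is read from these counts about the route.

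In the plastid thioredoxin list, all 4 measured genes of 15 had lower signals in sks, with a median of -0.96, where 54.3% of all measured genes were lower by any amount. With the deposited values 2 of the 4 were at least 2-fold lower, beside 12.4% of all measured genes. With spike scaling all 4 were, beside 26.0%. Only 1 of the 4 was after quantile normalization (beside 10.6%), loess removal (10.7%) or the added offset (7.56%). TRXF2, which activates enzymes of the Calvin cycle in the light, read 904.5 against 2105.2, a log2 difference of -1.22. NTRC, an NADPH-dependent reductase with its own thioredoxin domain that reduces 2-Cys peroxiredoxins, read 35.5 against 76.2, 2.15-fold lower but short of the 2-fold limit after quantile normalization (-0.97 on the log2 scale). Thioredoxin y2 (AT1G43560) read 71.1 against 126.0. AT2G04700, listed for ferredoxin-thioredoxin reductase, read 743.4 against 1224.8. The single measured locus of the peroxiredoxin list, AT3G11630, read 978.1 against 1473.8, within 2-fold with the deposited values but past it with spike scaling (-1.03 on the log2 scale). STZ (ZAT10), a zinc finger transcription factor that many stresses induce, was the only measured gene of 9 on the reactive oxygen response list, at 151.5 against 99.9 and, on its second probe set, 134.9 against 91.3.

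**Figure D3:**
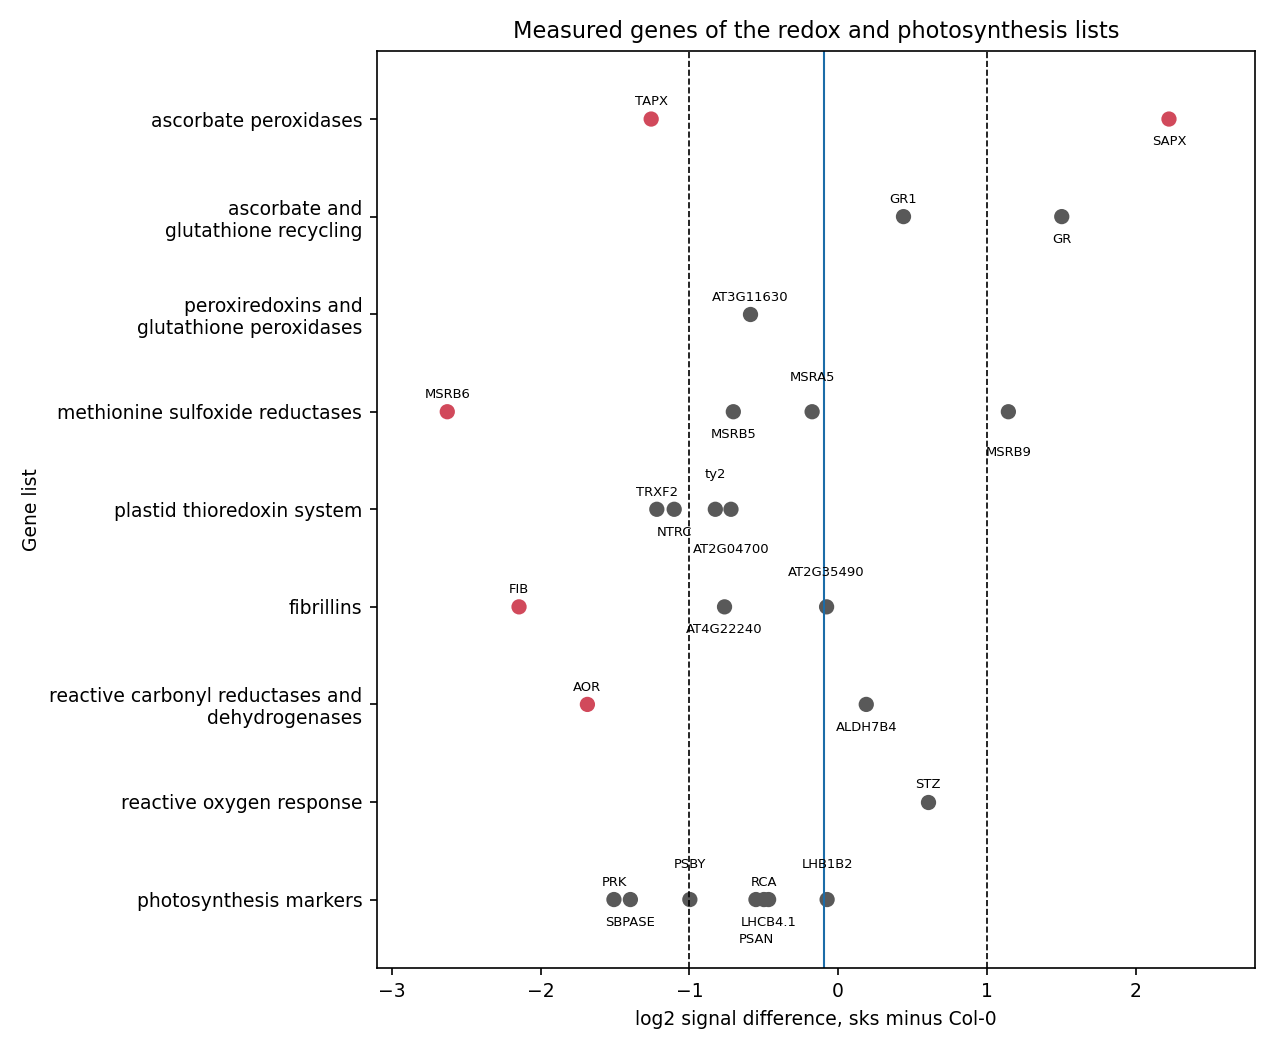
Log2 signal difference, sks minus Col-0, of each measured gene (1 point per gene, its brightest probe set, 1 array per genotype) in the redox lists and the photosynthesis marker list, with the 5 genes in red, the 2-fold limits dashed and the median of all measured genes as a blue line. All 4 plastid thioredoxin genes lie left of the blue line, while SAPX, GR and MSRB9 lie beyond the upper limit with the deposited values.

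Photosynthesis markers had lower signals in sks as well, most of them by less than 2-fold. Of 28 such genes, 7 were measured, and all 7 were lower with the deposited values, beside 54.3% of all measured genes. With the deposited values only PRK and SBPASE, enzymes of the Calvin cycle, were at least 2-fold lower (28.6%, beside 12.4% of all measured genes). PSBY passed the limit too with spike scaling (42.9%, beside 26.0%) and after loess removal (42.9%, beside 10.7%). The median was -0.55 and the range -1.51 (PRK) to -0.07 (LHB1B2). After median centring LHB1B2 turned to 0.021. The summed signal of the 7 was 18051 in sks and 26682 in the wild type. All 5 lower probe sets except those of TAPX differed by more than any of these 7. Those probe sets were picked from this same difference, so nothing is read from that order. The markers were also brighter, the dimmest being SBPASE at 300.4 in sks and 790.8 in the wild type. The part of photosynthetic tissue or greening in the differences of TAPX, MSRB6, FIB and AOR was not tested. None of the 7 root markers listed had a named probe set. Of 5 seed reserve markers only ICL was measured, at 308.7 in sks and 35.3 in the wild type.

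The measured gene with the most similar pair of signals was sought for each probe set among 1621 other genes, as the smallest distance in log2 signal over the 2 arrays. For MSRB6 it was AT4G38690 (65.5 in sks and 359.2 in the wild type), followed by the cadmium-induced gene CDI (58.5 and 327.3). For FIB it was AT2G21960 (57.7 and 208.8) and for AOR AT4G17840 (76.2 and 239.3). For the TAPX probe sets it was AT3G26630 (83.4 and 186.4) and AT2G32560 (68.0 and 171.9). SAPX had more distant matches, AT5G61520 (96.8 and 18.9) at 0.23 log2 units and the auxin-conjugating enzyme gene GH3.3 (70.0 and 24.0) at 0.49. With 2 arrays such a match describes a pair of numbers only.

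The direction and the side of the 2-fold limit held for all 6 probe sets under each of the 6 other scalings and floors tried. The floor at the highest blank (16.8) lay below all of these signals, so it could not change them. TAPX came closest to the limit, with the added offset. MSRB6 ranged from -3.07 with spike scaling to -2.36 with the offset.

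**Figure D4:**
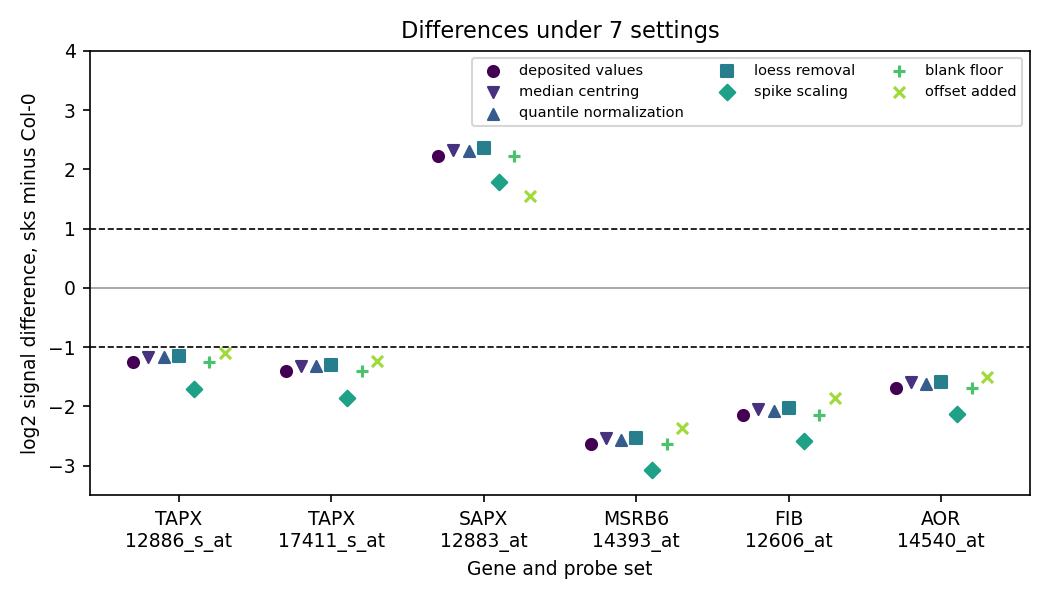
Log2 signal difference, sks minus Col-0, of each probe set with the deposited values and under 6 other scalings or floors (symbols), with 2-fold limits dashed. Each probe set keeps its side of the limit in all 7. Spike scaling lowers every value by 0.44, and the floor at the highest blank changes none.

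Array and RNA quality differed in part between the samples. All 9 hybridisation spikes were brighter on the sks array, with a median ratio of 1.36. For GAPDH the 3′ signal was 4.14 times the 5′ signal in sks and 2.94 times in the wild type. For ubiquitin these values were 4.65 and 4.84. The 25S ribosomal RNA control was lower in sks, at 117.2 against 296.8. The scanner background averaged 61.92 and 57.92. Their part in the differences of the 5 genes was not tested.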

How the data were processed

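The authors deposited 1 linear signal intensity per probe set and array for 8297 probe sets on 2 arrays; which software summarised the probes is not given in the sources used here. With a 2%-trimmed mean of 100.2 on both arrays, no further scaling was applied. Signals were floored at 1 and converted to log2, and Col-0 was subtracted from sks (Python 3.11.15, NumPy 2.4.6, pandas 2.3.3). The 50 control probe sets were left out. A list used the brightest probe set of each gene. Gene names came from the platform annotation (3794 single-gene probe sets), updated through the Entrez ID in the RefSeq table of TAIR10.1 (3784 matched). No coordinates are given because the files name no build, and sequences were not used here. Genes named are the members, listed genes with a probe set, neighbours and the nearest genes in signal. Alternatives were 4 scalings, a floor at the highest blank, an offset of 16, and other filters and fold limits. The counting step was tested on simulated data. The members, lists and settings were chosen with earlier results of these data known. The number of arrays limits the precision.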

Additional observations from a re-analysis of the deposited data

How the results depend on the processing

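All 6 probe sets of the 5 genes kept their direction and their side of the 2-fold limit under the 6 alternatives tried on them, 36 of 36 values. Part of this was fixed in advance. The floor at the highest blank lay below all of these signals and could not change them. Median centring and spike scaling each shift all probe sets by 1 amount. The count is a description and no support. Past the 2-fold limit on the higher and the lower side were 335 and 510 measured probe sets. These counts were 135 and 1092 with spike scaling and 222 and 334 with the offset. Without a filter they were 1008 and 1258, and filtering at the 75th percentile left 194 and 259. A limit of 3-fold gave 105 and 185, and one of 1.5-fold 751 and 1048. Plain _at probe sets of 1 gene gave 96 and 175. These settings change how many are tested or the limit itself. Fewer were higher than lower in all 11 alternatives. Spike scaling, which shifts every difference by 0.44, moved the plastid thioredoxin median from -0.96 to -1.41. Tried on the other listed genes after their values were seen, it turned GR1 to -0.0026 and ALDH7B4 from 0.19 to -0.25. It also took AT3G11630 (-1.03), MSRB5 (-1.15), thioredoxin y2 (-1.27), AT2G04700 (-1.16), fibrillin 1b (-1.21) and PSBY (-1.44) past the 2-fold limit. MSRB9 fell short of that limit on the higher side with spike scaling (0.70) and with the offset (0.88). Median centring turned AT2G35490 to 0.018 and LHB1B2 to 0.021. No paired analysis was possible because there is only 1 array for each genotype, and for the same reason none could be left out. Dim wild-type signals limit SAPX and GR, and shared-probe suffixes limit TAPX and GR.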

Other observations

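Further genes whose name in the gene table holds a redox word were looked up after the lists had been seen. The plastid glutaredoxin gene GrxC5 read 77.0 in sks and 93.8 in the wild type. CCS, the copper chaperone that loads superoxide dismutase, read 43.1 against 48.5, and the mitochondrial thioredoxin gene TO1 105.1 against 92.9. These 3 were within 2-fold. Secreted class III peroxidases, which use peroxide in the cell wall, differed in both directions. Peroxidase 71 (AT5G64120) read 616.9 in sks and 126.5 in the wild type, 4.88-fold higher, and peroxidase 72 (AT5G66390) 99.8 against 221.7, 2.22-fold lower, both on _s_at probe sets. PRXR1 read 1162.4 against 944.3.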
